A study of Macaca mulatta with 252 samples.

Results

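FREM3 (Entrez Gene 704182) was followed across the laminar transcriptome of the rhesus macaque cortex. The gene is 1 of 14133 genes with an unambiguous symbol on the array, and its level rests on 1 probe set, MmugDNA.4241.1.S1_at, of 52865. It was chosen by values of these data, its difference between cortical layers and its low level in V1. The layer profile and the contrast of V1 with other areas are therefore described here without a test.

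Tissue of adult rhesus monkeys was cut out by laser capture, the RNA was amplified, and each sample was hybridised to a 1-colour GeneChip. The 225 experimental arrays form 57 region groups, 54 of 4 arrays and 3 of 3 arrays, each array from a different monkey within its group. The groups are the layers of primary visual cortex (V1, 8 layers with 4A, 4B, 4Ca and 4Cb apart) and of 9 other areas: anterior cingulate (ACG), orbitofrontal (OFC), dorsolateral prefrontal (DLPFC), primary motor (M1), primary somatosensory (S1), primary auditory (A1), temporal area TE, middle temporal area MT and secondary visual cortex V2, with layer 4 apart in DLPFC, S1, A1, TE, MT and V2. The rest are the hippocampal fields CA1, CA2, CA3 and dentate gyrus (DG) and the magnocellular (M), parvocellular (P) and koniocellular (K) divisions of the dorsal lateral geniculate nucleus (LGN). The tissue came from 6 monkeys, called here male A, male B, male C, female D, female E and female F. No treatment or genotype separates them, and no animal gave every group. Levels are log2 normalised intensities of 1 probe set, so only levels of the same gene are compared. Laser capture takes a strip of tissue with all its cells, so fewer cells of a type and less RNA per cell cannot be told apart.

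FREM3 encodes FRAS1-related extracellular matrix protein 3, a member of the FRAS1 and FREM family of large secreted or membrane-anchored matrix proteins that lie at basement membranes. FRAS1, FREM1 and FREM2 act together in the adhesion of epithelium to the tissue below it. In human single-nucleus surveys FREM3 names a class of excitatory neurons of layers 2 and 3 that project within the cortex. Layers 2 and 3 hold most neurons that connect cortical areas, layer 4 receives the thalamic input of sensory areas, and layers 5 and 6 hold most neurons that project out of the cortex. CUX2, a homeobox factor of upper layer neurons, and FEZF2, a factor of layer 5 projection neurons, served to check the layer labels.

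In 2 arrays both CUX2 and FEZF2 stood more than 2 log2 units from their group's median, in opposite directions, against the layer label. The array labelled A1 layer 3 of male A had CUX2 at 7.28 and FEZF2 at 9.38, with FREM3 at 3.45. The array labelled S1 layer 4 of female D had CUX2 at 9.59 and FEZF2 at 5.37, with FREM3 at 6.23. The main tests that hold one of them are given with and without it. Alternative runs of those tests and correlations over group means keep both arrays unless stated. The amplification was run in 3 batches whose membership the labels used here do not give. As a stand-in, areas were split by how far hybridisation control probes varied between their arrays. Whether this split follows the 3 batches was not tested. A narrow set held V1, ACG, M1, S1, A1 and TE with 121 arrays, and a wide set held OFC, DLPFC, MT, V2, hippocampus and LGN with 104 arrays. The poly-A spike controls, a measure of the amplification, averaged 9.93 ± 0.57 in V1 (SD, n = 32) and 9.85 ± 0.67 in V2 (SD, n = 20), against 8.46 to 9.26 in the other structures. Array medians lay between 4.72 and 5.00. The deposited values carry no detection call, so a FREM3 level of 3 to 4 is low on this chip and is not shown to be absent.

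FREM3 was high in layers 2 and 3 of most of the 9 areas other than V1 and low in most other groups. Upper layer means outside V1 were lower in MT layer 3 (6.22), V2 layer 2 (6.07), M1 layer 3 (5.93) and V2 layer 3 (5.17). Group means spanned 6.45 log2 units (87.6-fold), with ACG layer 3 at 9.67 ± 0.06 (SD, n = 4) at the top and V1 layer 5 at 3.22 ± 0.36 (SD, n = 4) at the bottom. Over 71 arrays of layers 2 and 3 in the 9 areas the level was 3.45 at its lowest, 7.99 at the median and 9.82 at its highest. Over the 71 arrays of layers 5 and 6 in the same areas it ran from 2.97 to 4.62, with a median of 3.81. The 14 groups with means over 7 were all layer 2 or layer 3 groups, and 37 of the 57 groups lay below the median probe set of the array (4.76). In the order of the 57 means, 0 pairs of neighbours were separated by their ranges.

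**Figure D1:**
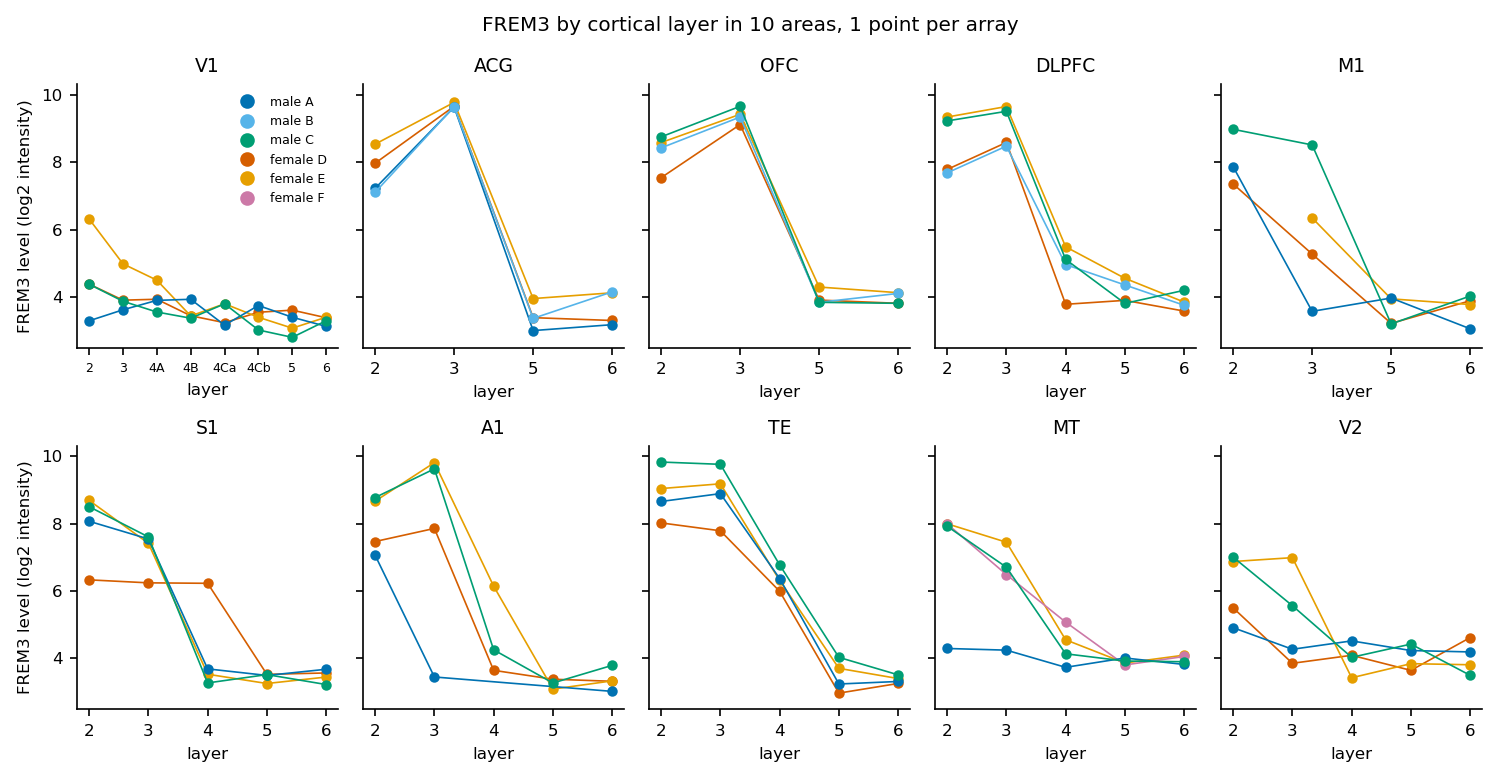
FREM3 level (log2 normalised intensity, y axis) against cortical layer (x axis) in V1 and 9 other areas. Each point is 1 array and each line joins the arrays of 1 animal. Lines of most of the 9 other areas are high in layers 2 and 3 in most animals, and those of V2 are lower. Lines of all 9 areas are close to 3 to 4 in layers 5 and 6. The V1 lines stay low, with 6.31 in layer 2 of female E as the highest V1 value.

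V1 held the lowest upper layer levels of the 10 areas. In V1 layer 2 FREM3 was 3.29 in male A, 4.38 in male C, 4.38 in female D and 6.31 in female E. In V1 layer 3 it was 3.62 in male A, 3.87 in male C, 3.91 in female D and 4.98 in female E. Female E was highest in both layers, and the other 3 animals lay at or below the array median.

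Below these the V1 profile was flat. Means were 3.97 ± 0.39 in 4A, 3.55 ± 0.26 in 4B, 3.50 ± 0.35 in 4Ca, 3.43 ± 0.31 in 4Cb, 3.22 ± 0.36 in layer 5 and 3.30 ± 0.12 in layer 6 (SD, n = 4 each). The ranges of layers 4A to 5 overlapped each other, and all 4 arrays of 4A lay above those of layer 6. The 4B group had 1 array apart, male A at 3.93, against 3.37 to 3.44 in the other animals.

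Set against the other areas of the same animal, V1 layer 2 was below all of them in each of the 4 monkeys. In male A it was 3.29, against 4.30 to 8.66 in 7 other areas. In male C it was 4.38, against 7.0 to 9.82 in 8 areas, and in female D 4.38, against 5.50 to 8.02 in 8 areas. In female E it was 6.31, against 6.87 to 9.34 in 8 areas.

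Layer 3 of V1 was below every other area in male C and in female E. Female D had 3.91 in V1 layer 3, and V2 layer 3 at 3.86 was the 1 of 8 areas that was lower. Male A had 3.62 in V1 layer 3, and 2 of its 7 other areas were lower: M1 at 3.57 and the A1 array that went against its label at 3.45.

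The difference between upper layers (mean of 2 and 3) and deep layers (mean of 5 and 6) was smaller in V1 than the mean of the other areas in each monkey. It was 0.19 in V1 of male A, against a mean of 3.00 in its other areas. The V1 value was 1.076 against 4.74 in male C, 0.65 against 3.69 in female D and 2.41 against 4.79 in female E. V1 was the smallest of all areas of the animal in the 3 animals other than female D, whose V2 difference was smaller still at 0.55. In male A, MT at 0.35 and V2 at 0.38 lay close to V1. By area the difference averaged 1.081 ± 0.96 in V1 (SD, n = 4), next to 1.59 ± 1.34 in V2 and 2.70 ± 1.57 in MT (SD, n = 4 each). The V1, V2 and MT ranges overlapped. The highest was TE at 5.46 ± 0.51 (SD, n = 4).

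**Figure D2:**
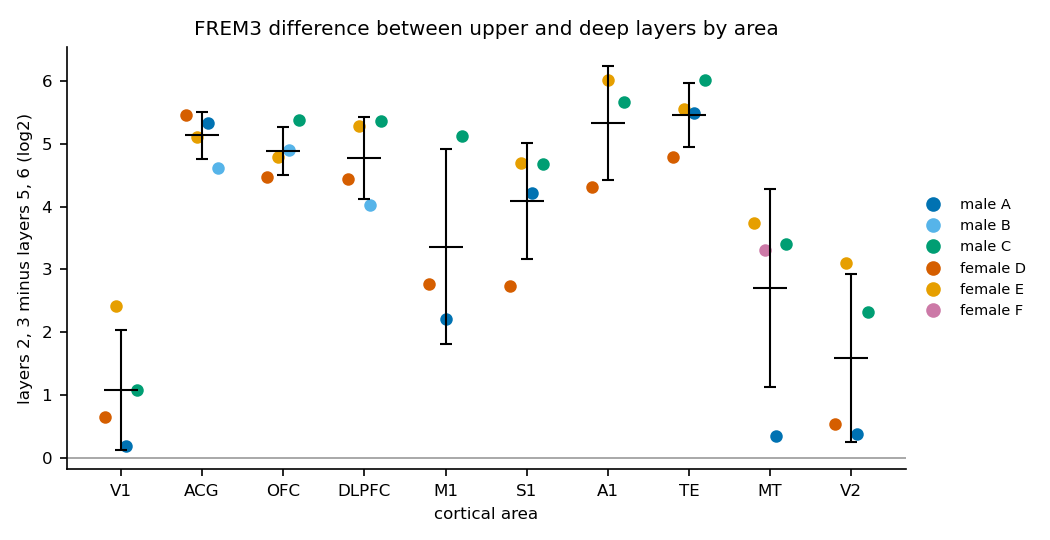
FREM3 in layers 2 and 3 minus layers 5 and 6 (log2 difference, y axis) by cortical area, V1 first (x axis). Points are animals, the black bar is the mean and the whiskers are 1 SD. V1 at 1.081, V2 at 1.59 and MT at 2.70 are the 3 lowest means, and ACG, OFC, DLPFC, A1 and TE all lie above 4 in every animal.

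The low level in V1 was not shared by the upper layer marker CUX2. CUX2 averaged 10.10 ± 0.26 in V1 layer 2 and 9.87 ± 0.24 in V1 layer 3 (SD, n = 4 each), against means of 9.89 and 9.58 over the same layers of the 9 other areas. The deep layer marker FEZF2 was 4.37 and 4.33 in V1 layers 2 and 3, against 5.26 and 5.56 in the other areas. Within V1 these markers do not tell layers 2 and 3 from layer 4, since CUX2 was also high in 4A to 4Cb.

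Among the 9 areas other than V1, FREM3 differed in layer 3, a comparison that the choice of the gene did not use. ACG, OFC and DLPFC, called the frontal areas here, had the highest means, except that A1 lay above DLPFC without its array against the label (9.09 and 9.05). ACG layer 3 had 9.63 in male A, 9.64 in male B, 9.65 in female D and 9.77 in female E, the narrowest of all upper layer groups. OFC layer 3 had 9.34 in male B, 9.65 in male C, 9.11 in female D and 9.42 in female E. DLPFC layer 3 had 8.47 in male B, 9.50 in male C, 8.58 in female D and 9.65 in female E. All 12 frontal arrays were at 8.47 or above.

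TE followed, with 8.89 in male A, 9.76 in male C, 7.79 in female D and 9.18 in female E. A1 layer 3 had 9.62 in male C, 7.86 in female D and 9.81 in female E beside the 3.45 of male A, so its mean was 7.68 ± 2.96 (SD, n = 4) and 9.09 ± 1.077 without that array (SD, n = 3). S1 was tighter, with 7.54 in male A, 7.60 in male C, 6.24 in female D and 7.42 in female E. TE and A1 overlapped the frontal areas, and all 4 arrays of S1 lay below every frontal array.

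The lowest layer 3 levels outside V1 were in MT, M1 and V2. MT layer 3 had 4.25 in male A, 6.71 in male C, 7.45 in female E and 6.49 in female F. M1 layer 3 had 3.57 in male A, 8.51 in male C, 5.27 in female D and 6.34 in female E, a spread as wide as that between areas. V2 layer 3 had 4.27 in male A, 5.57 in male C, 3.86 in female D and 6.99 in female E. The lowest animal was male A in MT and M1 and female D in V2. M1 layer 3 also had the lowest CUX2 mean of the upper layer groups, at 8.79 ± 0.61 (SD, n = 4). FEZF2 in M1 layer 3 was 4.13 in male A, 7.19 in male C, 6.37 in female D and 6.90 in female E. The FEZF2 mean over layer 3 of the 9 areas was 5.56. Whether deeper tissue in these M1 arrays has a part in their FREM3 level was not tested.

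The fitted layer 3 means of the 9 areas spanned 4.79 log2 units (27.7-fold), with an adjusted p of 8.89e-05 by limma's moderated F test with animal as a block. The fitted ACG mean, 10.025, lay above all 4 of its arrays, because the block adjusts each area for the animals it holds. Observed means ran from 9.67 in ACG to 5.17 in V2, and without the block the range was 4.50 (adjusted p = 0.00118 by limma). With the block, 7.13% of the 14133 genes were called, at an adjusted p under 0.05 and a range of at least 1. The FREM3 range was the 5th largest. FREM3 was chosen by its difference between layers and its low level in V1, so this rank is a description. Without the A1 array that went against its label the range was 4.77 (adjusted p = 4.98e-07). The call held within the narrow set (adjusted p = 0.0393) and within the wide set (adjusted p = 0.00201).

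Frontal layer 3 was higher than layer 3 of the visual areas V2 and MT. The 12 frontal arrays of ACG, OFC and DLPFC ran from 8.47 through a median of 9.57 to 9.77, and the 8 visual arrays from 3.86 through 6.03 to 7.45, with no overlap. The difference was 3.70 ± 0.51 (SE) on the log2 scale, or 13.01-fold, with an adjusted p of 7.14e-06 by limma. In this comparison 1.57% of genes were called in either direction with 1.05% called higher and 0.524% lower. Without the A1 array, which is not part of the contrast but enters the fit, the difference was 3.82 ± 0.37 (SE). With OFC and DLPFC against V2 and MT, all of the wide set, the difference was 3.31 ± 0.33 (SE).

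Some markers of other cell types moved with this comparison. Of 15 measured marker genes, 3 were called (1.57% of all genes), and all 3 were lower in frontal layer 3 (0.524% of all genes). They were PVALB, the calcium-binding protein of fast-spiking inhibitory neurons, at -2.0, and the myelin genes MBP at -1.54 and UGT8 at -1.62. The other inhibitory neuron markers on the list were not called, with GAD1 at 0.08 and VIP at -0.36. The mean of MBP and UGT8 ran from 7.84 to 9.75 over the frontal arrays and from 9.42 to 10.5 over the visual arrays. CUX2 was 9.79 ± 0.15 in frontal layer 3 (SD, n = 12) and 9.70 ± 0.23 in visual layer 3 (SD, n = 8), a difference of 0.05 ± 0.26 (SE). Whether the content of myelin or of PVALB neurons has a part in the FREM3 difference was not tested.

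Layer 2 was more even. By mean it ran from TE (8.88 ± 0.75), DLPFC (8.50 ± 0.90) and OFC (8.32 ± 0.54) through M1 (8.06 ± 0.83, n = 3), A1 (7.99 ± 0.86), S1 (7.90 ± 1.075) and ACG (7.71 ± 0.67) to MT (7.05 ± 1.84) and V2 (6.07 ± 1.03), with SD and n = 4 unless stated. The 7 areas from TE to ACG all overlapped. V2 layer 2 had 4.91 in male A, 7.0 in male C, 5.50 in female D and 6.87 in female E. MT layer 2 had 4.30 in male A, against 7.92 in male C, 7.99 in female E and 7.99 in female F.

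The range of the fitted layer 2 means was 2.81, with an adjusted p of 3.71e-05 by limma, where 11.1% of genes were called. Within the narrow set it was 0.99 (adjusted p = 0.157) and within the wide set 1.97 (adjusted p = 0.0581), so the call was made over all areas and in neither set alone.

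Of the 6 areas with a layer 4 group, TE was highest in that layer. TE layer 4 had 6.37 in male A, 6.77 in male C, 5.99 in female D and 6.31 in female E, all above the highest deep layer array (4.62). DLPFC followed with 4.84 ± 0.74 (SD, n = 4) and A1 with 4.68 ± 1.30 (SD, n = 3), where female E alone reached 6.14. MT averaged 4.38 ± 0.57 and V2 4.02 ± 0.45 (SD, n = 4 each). S1 averaged 4.18 ± 1.38 (SD, n = 4), and 3.50 ± 0.21 without the array of female D that went against its label (SD, n = 3).

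The range of the fitted layer 4 means was 2.34, with an adjusted p of 0.0247 by limma, where 11.9% of genes were called. Without the S1 array that went against its label the range was 3.07 (adjusted p = 0.000137), and without female D altogether it was 2.99 (adjusted p = 0.000305). With that array kept, the call was lost within the narrow set (adjusted p = 0.322), within the wide set (adjusted p = 0.270) and without female E (0.0579), male A (0.127) or male C (0.220). RORB, a nuclear receptor of layer 4 neurons, also had its highest group mean in TE layer 4, at 6.89.

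The name "layer 3 gene" fits ACG, OFC and DLPFC and not all other areas, M1 of the frontal lobe among the exceptions. Layer 3 exceeded layer 2 of the same animal in all 4 animals of ACG, by 1.97 ± 0.61, of OFC, by 1.06 ± 0.35, and of DLPFC, by 0.55 ± 0.29 (SD). In TE the 2 layers were level, with a difference of 0.02 ± 0.21. Layer 2 was the higher in all animals of M1, where layer 3 minus layer 2 was -2.28 ± 1.92 (SD, n = 3), of MT, with -0.83 ± 0.66, and of S1, with -0.70 ± 0.51 (SD, n = 4 each). It was also the higher in 3 of 4 animals of V1 (-0.50 ± 0.68) and of V2 (-0.90 ± 0.80). In A1 the sign was positive in 3 of 4 animals, at 0.39, 0.85 and 1.14, and -3.61 in male A, whose layer 3 array went against its label. CUX2 averaged 8.79 in M1 layer 3, against 9.90 in M1 layer 2. Whether deeper tissue in the M1 layer 3 arrays has a part in the M1 difference was not tested.

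The choice of the gene used differences between layers averaged over areas, so these levels are a description. Whether the difference varied among the 9 areas other than V1, which that choice did not use, was tested over all genes. The fitted means spanned 4.14 log2 units, with an adjusted p of 0.0941 by limma, so FREM3 was not called where 0.969% of genes were. Without the array that went against its label the adjusted p was 0.00304 with a range of 4.17, and without male A altogether it was 0.0154 with a range of 2.90. Over leaving out each other animal it ran from 0.0939 to 0.532. The fit without the animal block gave 0.0114. The call therefore depends on the arrays of male A and on the block.

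**Figure D3:**
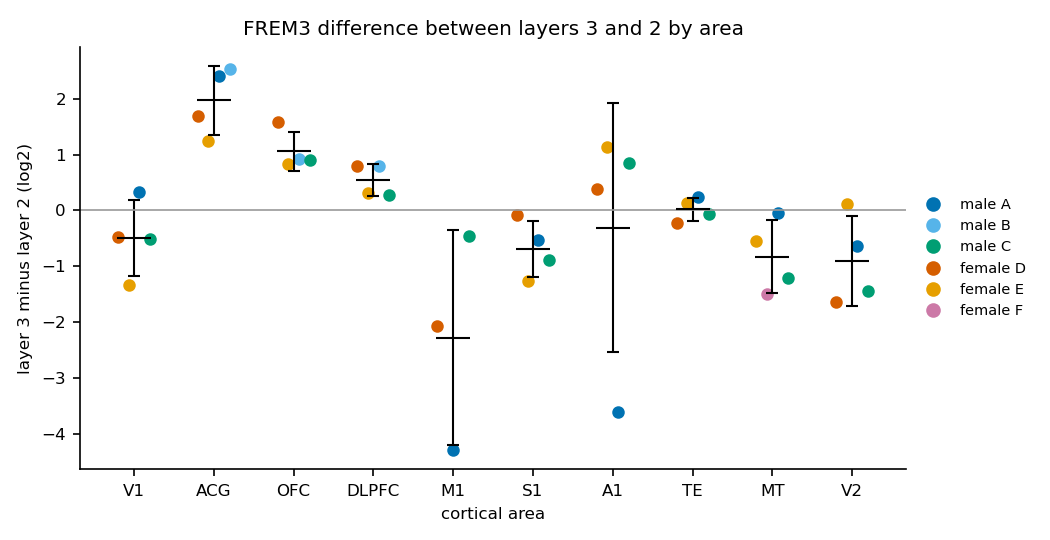
FREM3 in layer 3 minus layer 2 of the same animal (log2 difference, y axis) by cortical area (x axis). Points are animals, the black bar is the mean, the whiskers are 1 SD and the grey line is 0. All animals of ACG, OFC and DLPFC lie above 0 and all animals of M1, S1 and MT lie below it.

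Monkeys differed in the level of FREM3 in the layers where it was high. Over the layer 2 and 3 groups of all 10 areas, female E was the highest animal in 11 of its 19 groups and male C in 9 of 18, and neither was ever the lowest. Male A was the lowest in 9 of 16 (8 of 15 without its array against the label) and female D in 8 of 18, and neither was ever the highest. Relative to the other animals of the same group, the median difference was 1.05 for female E and 0.88 for male C, against -0.82 for female D and -0.92 for male A. For male A it was -0.65 without its array against the label.

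CUX2 differed less between animals. Its median difference was 0.01 for female E, 0.33 for male C, -0.14 for female D and -0.11 for male A, with the A1 array against its label kept. In a fit of animal and group over 70 layer 2 and 3 arrays of these 4 monkeys, the animal effects on FREM3 spanned 1.58 log2 units, and 22 of 14133 genes, FREM3 included, had a range at least as wide (median over all genes 0.19). The span for CUX2 was 0.29. ACG layer 3 was the exception, with 9.63 to 9.77 over its 4 animals.

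Male A gave the lowest values in several areas whose CUX2 was high. Its M1 layer 3 array had FREM3 at 3.57 with CUX2 at 9.10, and its RORB was 6.05, against 3.95 to 4.88 in the other M1 layer 3 arrays. Whether more layer 4 tissue in that array has a part in its level was not tested. The MT layer 2 array of male A had FREM3 at 4.30 with CUX2 at 9.78 and RORB at 4.23, against RORB of 3.97 to 4.49 in the other MT layer 2 arrays. In TE layer 3, by contrast, male A had 8.89. The low values of male A were therefore not a property of every area.

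Too few animals of each sex were at hand to test for a difference between them. Over layer 3 of S1, TE and V2, the mean was 6.90 in male A and 7.64 in male C, and 5.96 in female D and 7.86 in female E. The males averaged 0.36 more than the females (two-sided exact permutation test, p = 1, n = 2 each), and 2 against 2 animals cannot give a p below 0.333. In S1 alone both males were above both females (0.74 on average), in TE alone the males averaged 0.84 more, and in V2 alone the difference was -0.50.

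Within the layer 2 and 3 groups, arrays with more FREM3 tended to have less RORB (r = -0.433) and less MBP (r = -0.368) and more P2RY12, a microglial gene (r = 0.418), and more CUX2 (r = 0.337). These are descriptive correlations over 78 arrays with group means removed and without the A1 array that went against its label. The arrays share animals and hybridisation runs. The correlation with the poly-A spike controls was 0.0375.

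Outside the neocortex FREM3 was low. In the hippocampus it ran from 3.41 to 4.31 over 16 arrays. CA1 averaged 3.91 ± 0.12, CA2 4.06 ± 0.22, CA3 3.69 ± 0.22 and DG 3.99 ± 0.16 (SD, n = 4 each). The field means spanned 0.37, with an adjusted p of 0.0885 by limma where 15% of genes were called. That field range was below the size threshold and the fields overlapped.

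In the LGN it ran from 3.46 to 4.45 over 12 arrays. The M division averaged 3.94 ± 0.40, P 4.10 ± 0.31 and K 4.06 ± 0.29 (SD, n = 4 each). The division means spanned 0.16, with an adjusted p of 0.943 by limma where 0.311% of genes were called.

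Both structures lay slightly above the deep cortical layers in the pooled comparison. Hippocampal means were 3.87 in male A, 4.05 in male C, 3.85 in female D and 3.89 in female E, against 3.56, 3.75, 3.58 and 3.81 in layers 5 and 6 of the same animals in the same order. The difference was 0.24 ± 0.05 (SE), with an adjusted p of 0.0049 by limma, below the size of 1 required for a call (5.26% of genes called). LGN means were 3.74 in male A, 4.05 in male C, 3.98 in female D and 4.35 in female E, a difference of 0.36 ± 0.07 (SE) from the same cortical means, with an adjusted p of 0.00173 and 7.80% of genes called.

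This small difference followed the split by control probes. Deep layer arrays averaged 3.99 ± 0.27 in the wide set (SD, n = 32), to which hippocampus and LGN belong, and 3.49 ± 0.34 in the narrow set (SD, n = 39). Against deep layers of the wide set alone the hippocampus was -0.08 (adjusted p = 0.417) and the LGN 0.04 (adjusted p = 0.779).

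**Figure D4:**
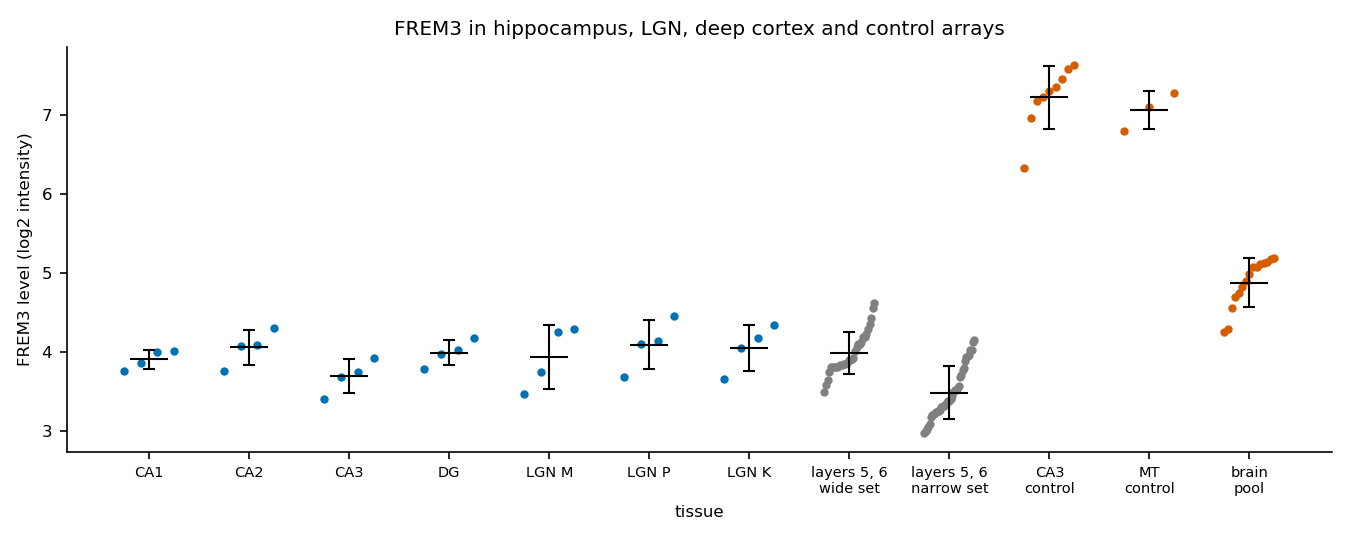
FREM3 level (log2 normalised intensity, y axis) in 4 hippocampal fields, 3 LGN divisions, layers 5 and 6 of the 9 areas other than V1 split by control probe set, and control arrays (x axis). Points are arrays, the black bar is the mean and the whiskers are 1 SD. The hippocampal, LGN and wide-set deep layer arrays lie together near 4, and the arrays labelled as CA3 controls lie at 6.33 to 7.63.

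The relatives of FREM3 did not share its profile. Over the 57 group means the correlation with FREM3 was 0.28 for FRAS1, -0.04 for FREM1 and -0.05 for FREM2, as a description (median over all genes -0.01). FRAS1, the founding member of the family, had its highest mean in TE layer 2 at 8.58 and its lowest in CA3 at 6.10. FREM1 and FREM2 stayed low in cortex and peaked in the hippocampus, FREM1 in CA3 at 5.56 and FREM2 in CA1 at 5.30.

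Of these 3 genes, 0 were called among areas in layer 3 (7.13% of all genes) or between frontal and visual layer 3 (1.57% of all genes), where their differences were -0.08, 0.08 and 0.05. With 3 genes these counts of 0 are near the shares over all genes. Among hippocampal fields, where FREM3 was not called, all 3 were called (15% of all genes), with ranges of 1.10 for FRAS1, 1.54 for FREM1 and 2.16 for FREM2. Of the 3, FRAS1 alone was called among areas in layer 2 (range 1.71, 11.1% of all genes called). FRAS1 was also the only 1 called in layer 4 (range 1.44, 11.9% of all genes) and for layer 3 minus layer 2 (range 1.58, 0.969% of all genes).

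Of 10 genes for known partners, matrix relatives and processing enzymes of the family, 9 were measured. They included GRIP1, the adaptor that carries FRAS1 and FREM2 to the cell surface, NPNT, a matrix ligand that binds the family, its integrin receptor subunits ITGA8 and ITGB1, and the proprotein convertase FURIN. Of the 9, 0 were called among areas in layer 3 (7.13% of all genes), with a median range of 0.68 (0.54 over all genes), and 0 between frontal and visual layer 3 (1.57% of all genes). With 9 genes these counts are near the shares over all genes. Of the 9, NPNT alone was called among areas in layer 2 (range 1.30, 11.1% of all genes called). NPNT was also the only 1 called among areas in layer 4 (range 1.13, 11.9% of all genes). Among hippocampal fields 2 of the 9 were called (15% of all genes), NPNT (range 3.27) and HMCN1, the matrix protein hemicentin 1 (range 1.40). These counts too are near the shares over all genes. HMCN1 was also the 1 of 9 called between LGN and deep cortex, lower in LGN at -3.81 (4.90% of genes called lower).

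Of 5 genes that name human upper layer neuron types, 3 were measured. LAMP5 correlated with FREM3 at 0.48 over the 57 groups, LTK at 0.23 and GLP2R at 0.03. LAMP5, a lysosome-associated membrane protein, was called among areas in layer 2 (range 1.45, 11.1% of all genes called) and in layer 4 (range 1.13, 11.9% of all genes), and 0 of the 3 were called among areas in layer 3 (7.13% of all genes). LAMP5 was at 8.44 in V1 layer 2, against a mean of 9.04 over layer 2 of the other areas.

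The genes whose 57 group means were most like those of FREM3, by Pearson's r and passing over symbols that start with LOC, were SCGN (0.84), LPAR6 (0.84), TAF7L (0.83), MEPE (0.81), RASGRF2 (0.79), AEBP1 (0.78), PCYOX1L (0.77) and WFIKKN1 (0.77). Of 14132 genes, 42 had r over 0.7. SCGN encodes the calcium-binding protein secretagogin, LPAR6 a receptor for lysophosphatidic acid, MEPE a secreted matrix phosphoglycoprotein, RASGRF2 a calcium-dependent exchange factor for small GTPases and AEBP1 a secreted matrix protein. The same libraries give all of these means, and layers of 1 area share animals.

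How far they matched FREM3 in V1 differed from gene to gene. LPAR6 was 4.90 and 4.07 in V1 layers 2 and 3, against 7.01 and 6.95 in the other areas. AEBP1 was 8.12 in V1 layer 2, against 7.91 in layer 2 of the other areas. Frontal minus visual layer 3 was part of what chose these 8 genes, so it is given without a test: 1.28 for TAF7L, 1.56 for MEPE, 1.09 for RASGRF2, 0.54 for LPAR6 and 0.51 for SCGN.

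The most opposite genes were OTUD6B (-0.73), PINX1 (-0.73), PPP2R5B (-0.73) and PDE4A (-0.72). CUX2 correlated at 0.67 over 57 groups and at 0.81 over the 49 groups without V1. For LPAR6 the values were 0.84 and 0.86.

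**Figure D5:**
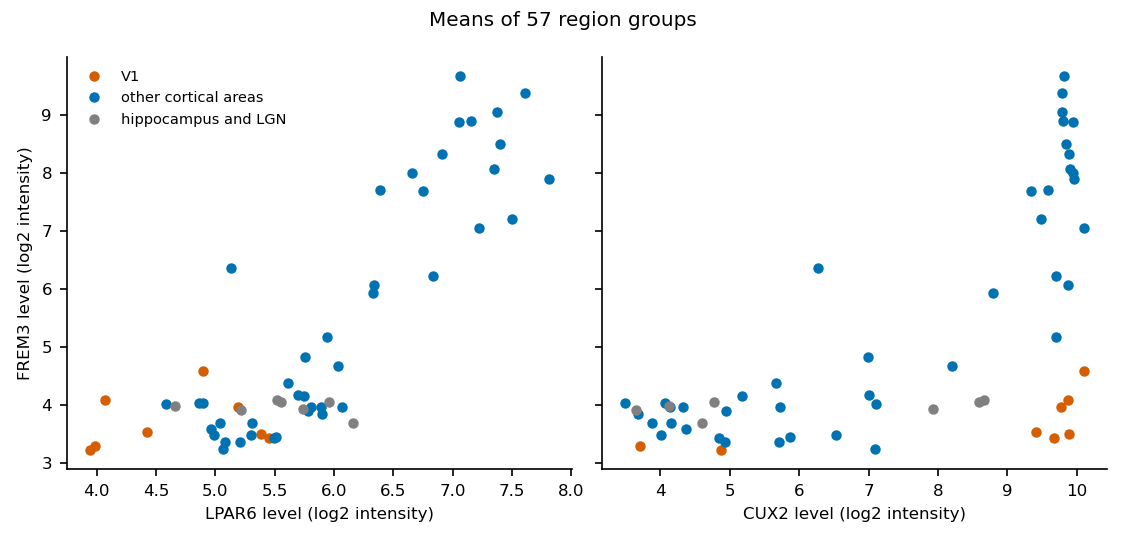
FREM3 level (y axis) against LPAR6 (left x axis) and CUX2 (right x axis), all in log2 normalised intensity. Each point is the mean of 1 of 57 region groups. V1 groups with CUX2 near 10 have low FREM3, and layers 2 and 3 of V1 are also low in LPAR6, at 4.90 and 4.07.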

How the data were processed

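Per the file headers, the authors deposited log10 intensities from the GeneChip Rhesus Macaque Genome Array: RMA was run within each of 3 amplification batches in Matlab, and each probe set was then scaled on whole brain pool arrays common to the batches. Such scaling can leave batch differences of single probe sets, and no raw intensities were analysed. The values were multiplied by 3.32 to give log2. Of 52865 probe sets, 24969 had 1 gene symbol, 361 several and 27535 none; of several probe sets the one brightest on average over the 225 arrays stood for the gene, which left 14133 genes. Names came from the platform annotation.

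Tests across genes used limma 3.58.1 in R 4.3.3 (lmFit, eBayes with an intensity trend), animal as a fixed block and Benjamini-Hochberg adjustment over 14133 genes; a call needed an adjusted p under 0.05 and a size of at least 1 on the log2 scale. The script was tested on simulated data. Animals are true pairs: residuals of 1 animal's arrays correlated at a median of 0.134, and those of different animals at -0.0379. Each array is 1 sample, and the number of animals limits the precision. The members and lists were chosen with earlier results of these data known. The named genes were FREM3, its family, the partner, neuron type and marker lists and the 8 most and 4 least correlated genes. The 27 control arrays entered no test. The alternatives were a filter on low genes, no intensity trend, no block, quantile normalisation, the poly-A level as covariate, each control probe set alone, and leaving out each animal. Leaving out the arrays against their label, the 49 groups without V1 and the alternatives for the upper minus deep differences were added after seeing the data.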

Additional observations from a re-analysis of the deposited data

Results flagged for a closer look

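Of 55 groups of 4 to 10 arrays, 7 had 1 FREM3 value set apart by Dixon's test, where chance gives about 1 in 20, or 2.75. MT layer 2 of male A stood at 4.30, against 7.92 for the nearest array, and S1 layer 4 of female D at 6.23, against 3.69. S1 layer 3 of female D was low at 6.24, against 7.42. The other 4 gaps were under 0.5: ACG layer 3 of female E at 9.77, OFC layer 5 of female E at 4.29, S1 layer 5 of female E at 3.26 and V1 layer 4B of male A at 3.93. Only the S1 layer 4 array also had CUX2 and FEZF2 against its label.

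Layer 3 minus layer 2 had opposite signs in every animal of some areas. It was positive throughout in ACG (1.97), OFC (1.06) and DLPFC (0.55) and negative throughout in M1 (-2.28), MT (-0.83) and S1 (-0.70). The test among the 9 areas gave an adjusted p of 0.0941 by limma, and single pairs of areas were not tested.

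The 9 control arrays labelled as CA3 entered no comparison. Their FREM3 level averaged 7.22 and ran from 6.33 to 7.63, against 3.41 to 3.93 in the 4 experimental CA3 arrays. Over all genes they correlated at 0.989 to 0.991 with the mean of the MT layers and at 0.959 to 0.962 with the experimental CA3 arrays. The 3 control arrays labelled as MT had FREM3 at 6.80 to 7.28 and the 15 whole brain pool arrays at 4.26 to 5.19. The control arrays labelled as CA3 thus went against their label in FREM3 and over all genes, and the cause was not tested.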

How the results depend on the processing

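Of 119 values under alternatives for the main comparisons, 107 counted as kept, 7 lost a call, 3 gained one and 2 changed sign. For values tested by limma, kept meant the same direction and the same side of the call threshold. For the upper minus deep differences, which carry no call, it meant a shift of less than 1 SD. For males minus females it meant the same sign. LGN minus deep cortex, never called, counted as kept although it fell from 0.36 to 0.04 in the wide set (adjusted p = 0.779 by limma). The layer 3 range among areas (3.87 to 5.56) and the frontal minus visual difference (3.31 to 4.30) stayed called in every alternative run. Layer 2 lost its call within the narrow (0.99) and the wide set (1.97), which hold fewer areas and arrays. Layer 4 lost it within the narrow (2.18) and the wide set (0.86), and leaving out animals gave ranges of 2.21 to 2.99, not called without female E, male A or male C. Layer 3 minus layer 2 was called without the array against its label (4.17), without the animal block (4.25, adjusted p = 0.0114) and without male A, within a leave-one-out range of 2.90 to 4.99. Hippocampus minus deep cortex reversed in the wide set (-0.076). Males minus females reversed in V2 alone (-0.50). The animal block changed no other FREM3 call. Counts of genes called moved by over 1.5 times under some alternatives, with leaving out 1 animal among them: in layer 3 from 1007 to 497 (narrow set), 149 (wide set) and 594 (without female E); in layer 2 from 1568 to 266, 52, 894 (without female D), 807 (without male A) and 2641 (without male B); in layer 4 from 1687 to 20 (narrow set) and 955 (wide set); for layer 3 minus layer 2 from 137 to 1 in either set, and to 7 (without female E), 32 (without male C), 49 (without female D) and 60 (without male A); and for LGN divisions from 44 to 6 without the block and 19 without female E. The cause was not tested. The filter left FREM3 untested in layer 4, hippocampus, LGN and deep cortex. FREM3 has 1 probe set, so no second could be tried. The narrow set lacks hippocampus, LGN and visual areas other than V1.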

Other observations

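Within the layer 2 and 3 groups, the genes that followed FREM3 most closely from array to array were RBP4, a carrier of retinol (r = 0.758), DYDC2 (0.749), NQO2, a quinone reductase (0.720), MRPL9, a protein of the mitochondrial ribosome (0.712), and MAMU-I, a macaque class I histocompatibility gene (0.701). These are descriptive correlations over 78 arrays with group means removed and symbols that start with LOC passed over, and the genes were picked after their values were seen. Arrays of 1 animal recur in these groups, so differences between animals enter every one of them.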
